A study of Homo sapiens with 12 samples.

Results

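The comparison described here is what TNFα (tumour necrosis factor alpha), a cytokine of inflammation, did to BT549 cells that carried a control siRNA. It rests on 6 of the 12 arrays of the series, chosen by their sample titles, with 3 arrays of cells given vehicle and 3 of cells given TNFα. BT549 is an established triple-negative breast cancer line, cultured in medium with fetal bovine serum. Both groups had been transfected with the control siRNA for 72 hours before vehicle or TNFα was added for 6 hours, so c-Jun, which forms part of AP-1, was not depleted. The other 6 arrays hold the same line after a pool of siRNAs against c-Jun, with vehicle or TNFα. The dose of TNFα is not given in the sources used here. All cells came from 1 line, and no label says that replicates came from separate cultures. The p-values therefore measure only the spread between these samples, which may be technical.

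TNFα binds receptors that free the transcription factor NF-kB from its inhibitors and activate the kinases JNK and p38, which in turn act on the transcription factor AP-1. The best known targets are chemokines, adhesion molecules and the inhibitors that end NF-kB signalling, and interferon-stimulated genes follow them in many cells. TNFα also lowers genes of differentiation and metabolism, as in muscle, cartilage and fat cells. The genes below are those outside the NF-kB and interferon leaders, with most room for the genes that fell.

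Values are log2 expression of 1 probe set per gene, and each change is the mean of the TNFα arrays minus that of the vehicle arrays with its standard error (SE). Probe sets differ in brightness, so levels are compared within a gene only. Among 12 mesenchymal markers, all 12 lay at or above the median level of the 17958 genes measured, with means from 7.44 to 12.7 on the vehicle arrays, while 12 of 14 epithelial, 11 of 12 leukocyte and 10 of 10 endothelial markers lay below it. The hormone receptor genes ESR1 and PGR lay at 4.35 and 3.76, also below it. They belong to a list of 11 luminal markers, of which 7 lay below the median level and the highest mean was 9.72. ERBB2, also on that list, lay above the median level, at 8.86. Of 4 measured basal markers 2 lay below it. Changes of genes with a mean under 5 in either group, a range that holds ESR1 and PGR, are given on the log2 scale with no fold. Some are also given with a floor, which raises every value under 5 to 5. The log2 of the summed endothelial markers lay between 8.32 and 8.48 on the vehicle arrays and between 8.80 and 8.86 on the TNFα arrays, and that of the epithelial markers between 9.72 and 9.82 and between 9.50 and 9.66; their part in the changes below was not tested. JUN itself stood at 10.36, 10.35 and 10.36 on the vehicle arrays and at 11.12, 11.05 and 11.05 on the TNFα arrays, a rise of 0.72 ± 0.032 (SE, n = 3 in each group). On the c-Jun siRNA arrays it stood at 9.82, 9.85 and 9.81 with vehicle and at 10.36, 10.33 and 10.39 with TNFα, lower than with the control siRNA under the same treatment. The arrays were on one scale, with medians of all probe sets between 5.62 and 5.68, and their number limits the precision.

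At an adjusted p under 0.05 (limma, Benjamini-Hochberg over all genes), 6416 of 17958 genes changed, which is 35.7%. Falls were more frequent than rises, with 3930 genes lower (21.9%) and 2486 higher (13.8%), but fewer of the falls were large. The median change of the lowered genes was -0.284, and 81.4% of them moved by less than 0.5. Only 101 genes (0.562%) fell at least 2-fold, against 322 (1.79%) that rose as much. Among the 8979 genes at or above the median level, 3070 (34.2%) were lower and 1958 (21.8%) higher, and these shares are the background for lists of well expressed genes. The 3 TNFα arrays all lay below the 3 vehicle arrays in 27.6% of genes and all above them in 17.6%. The median change over all genes was -0.023. In bulk samples, fewer cells of a type and less RNA per cell cannot be told apart.

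**Figure D1:**
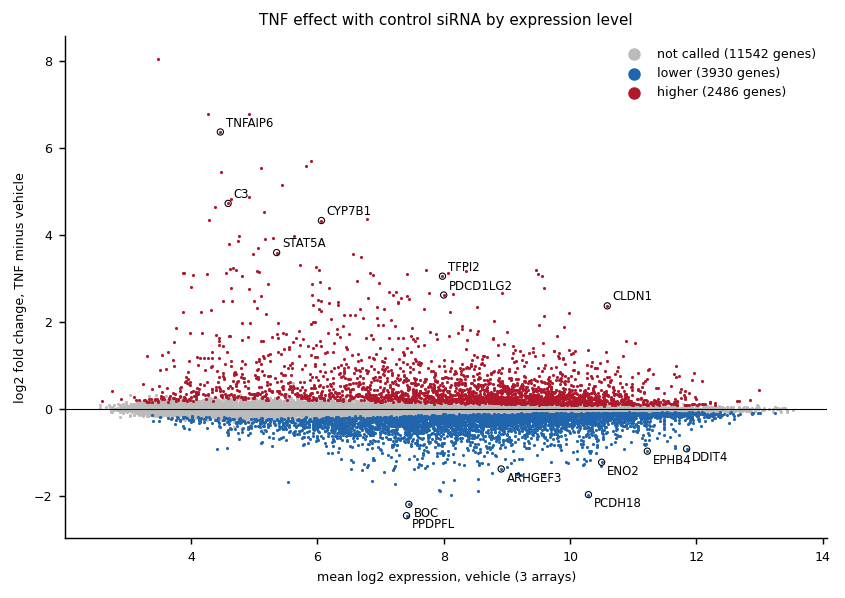
Log2 fold change with TNFα (vertical axis) against mean log2 expression on the 3 vehicle arrays (horizontal axis) for 17958 genes with control siRNA. Grey genes were not called, the 3930 lowered genes are blue and the 2486 raised genes red, and rises reached 8.06 in CXCL10 while the deepest fall was -2.46 in PPDPFL.

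Surface and signalling proteins were among the deepest falls. PPDPFL, a gene named for its likeness to a pancreatic differentiation factor, lay at 7.37, 7.21 and 7.66 on the vehicle arrays and at 4.80, 5.04 and 5.02 with TNFα. It fell by 2.46 ± 0.11. TMEM37, a membrane protein related to calcium channel subunits, went from 8.06, 8.14 and 8.17 to 6.23, 6.24 and 5.93, a fall of 1.99 ± 0.079. In both genes the groups did not overlap. The endonuclease-like EEPD1 fell by 1.68 ± 0.067, from 7.99 ± 0.075 to 6.32 ± 0.09 (mean ± SD, n = 3 in each group). RAB3A, a small GTPase of vesicle release, fell by 1.47 ± 0.058 and the potassium channel KCNK3 by 1.47 ± 0.095. The melanocortin receptor MC1R went from 7.64 ± 0.062 to 6.34 ± 0.13. PTPN13, a tyrosine phosphatase, went from 9.60, 9.51 and 9.63 to 7.98, 8.18 and 8.12 and was 2.81-fold lower. The kinases NUAK1, a relative of AMPK, and PIK3C2B, a class II phosphoinositide kinase, fell by 1.33 ± 0.065 and 1.32 ± 0.062. TIMP3, a matrix-bound inhibitor of metalloproteinases, fell by 1.26 ± 0.04, from 10.23, 10.17 and 10.26 to 8.99, 8.95 and 8.93. A second TIMP3 probe set, itself under the median level, showed -1.22. The adjusted p-values of these genes (limma) ran from 1.2e-14 to 6.91e-10. Of the 40 deepest falls named by the rule, the smallest was -1.24, and the rule left out 7 deeper ones in dim genes, among them HOXB5 and SLITRK6.

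Receptors and co-receptors of Hedgehog signalling fell, while none of the GLI factors was called lower. Hedgehog ligands bind PTCH1 with the help of the co-receptors BOC, CDON and GAS1, which releases SMO to activate the GLI factors, and PTCH1 is itself a GLI target. BOC lay at 7.52, 7.41 and 7.42 with vehicle and at 5.35, 5.31 and 5.09 with TNFα, 4.59-fold lower (-2.20 ± 0.10, SE). PTCH1 lay at 9.11, 9.23 and 9.14 and then at 7.68, 7.60 and 7.68, a change of -1.51 ± 0.045. CDON went from 8.73, 8.45 and 8.51 to 7.27, 7.25 and 7.28 (-1.30 ± 0.068). GAS1 went from 9.44, 9.49 and 9.48 to 8.25, 8.45 and 8.52 (-1.06 ± 0.063). SMO, the signal transducer, moved from 7.94, 7.87 and 7.82 to 7.20, 7.17 and 7.23. In all 5 genes the TNFα arrays lay below the vehicle arrays without overlap, and the limma adjusted p was at most 2.13e-08. Of 7 measured receptors and co-receptors 6 fell, with a median of -1.07 beside -0.023 over all genes. The 4 that lay at or above the median level by the mean of all 12 arrays all fell. By that mean BOC, at 6.02, lay below the median of 6.97. HHIP, a decoy receptor, fell by 0.23 ± 0.066, or by 0.20 with no call once TNFα replicate 2 was left out (adjusted p = 0.0502, limma), and LRP2 did not pass. Among ligands and their release proteins, DISP1, which frees the ligand from the cell, went from 7.45, 7.39 and 7.46 to 6.58, 6.70 and 6.70, while the ligand genes SHH, IHH and DHH did not pass and lay below the median level in both groups. The inhibitor SUFU fell by 0.34. GLI3 rose by 0.56 ± 0.036, and GLI1 and GLI2, which lay below the median level, did not pass (0.18 and 0.001). In the whole pathway 8 of 21 genes were lower (38.1%) and 1 was higher, and 6 of the 8 lower genes were receptors or co-receptors.

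Among homeobox genes, members of the HOXB and HOXC clusters fell and no measured HOX gene rose. These transcription factors set the position of a cell along the body axis and are kept in adult mesenchymal cells. HOXB6 lay at 8.59, 8.49 and 8.53 with vehicle and at 6.69, 6.81 and 6.42 with TNFα, 3.72-fold lower (-1.89 ± 0.082). HOXB3 lay at 7.54, 7.51 and 7.56 and then at 6.06, 6.31 and 6.05 (-1.40 ± 0.073). HOXC11 went from 7.20, 7.24 and 7.21 to 5.77, 5.81 and 6.01 (-1.35 ± 0.07), and HOXC9 from 7.94, 7.84 and 7.89 to 6.69, 6.86 and 6.85 (-1.09 ± 0.075). HOXC13 fell by 1.00 ± 0.081 and HOXB5 by 1.38 ± 0.085. The groups did not overlap in any of these 6 genes, and the adjusted p (limma) was at most 1.01e-08. HOXB5 and HOXB6 lie next to each other among the measured genes of chromosome 17. In all 16 of 27 measured HOX genes fell, 6 of them at least 2-fold, with a median of -0.575. Only 7 of the 27 lay at or above the median level, and all 7 fell. Another 12 HOX genes, most of them of the HOXA cluster, had no probe set of their own and are not analysed here. None of the measured HOXD genes passed.

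**Figure D2:**
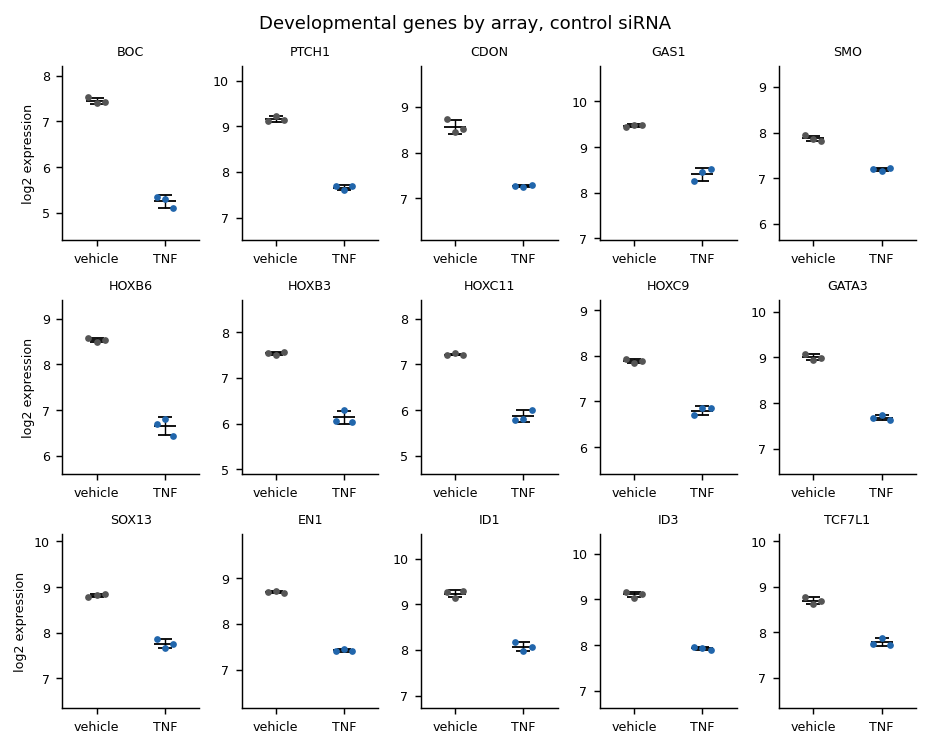
Log2 expression (vertical axis) of 15 developmental genes on the 3 vehicle and 3 TNFα arrays with control siRNA. Points are arrays, bars show the mean and SD, every panel spans the same range of log2 units, and in each the TNFα arrays lie below the vehicle arrays, from a fall of 2.20 in BOC to one of 0.67 in SMO.

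Other transcription factors of development fell more than they rose. GATA3, a factor of the mammary luminal lineage, went from 9.08, 8.95 and 8.99 to 7.68, 7.74 and 7.62 (-1.33 ± 0.067). SOX13 went from 8.77, 8.82 and 8.85 to 7.86, 7.67 and 7.75 (-1.06 ± 0.051). EN1, an engrailed homeobox factor, fell by 1.28 ± 0.066. The zinc finger factor SALL2 fell by 1.33 ± 0.13 and another, ZNF521, fell by 1.29 ± 0.06. FOXB1 fell by 1.37 ± 0.12, with its TNFα arrays spread over 6.70, 6.21 and 6.07. TRERF1, a zinc finger regulator of steroid enzymes, was 3.63-fold lower, from 7.93 ± 0.035 to 6.07 ± 0.11. TET1, which oxidises 5-methylcytosine, was 2.73-fold lower, from 6.99, 7.17 and 7.02 to 5.46, 5.65 and 5.72. TSHZ1 and PITX1 fell by 0.85 and 0.63, while SIX5, TBX3 and GATA6 rose by 0.71, 0.60 and 0.54. Of 76 homeobox, T-box, forkhead, SOX, GATA and TWIST genes outside the HOX clusters 25 fell (32.9%) and 7 rose (9.21%). Among the 30 of them at or above the median level 18 fell, against 34.2% of all such genes. The limma adjusted p of the named genes was at most 2.32e-07.

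In the BMP and TGF-beta pathway the targets ID1 and ID3 fell, while 2 ligand genes and 2 inhibitors were among the largest rises. ID1 and ID3 encode inhibitors of basic helix-loop-helix factors and are classical targets of BMP signalling. ID1 lay at 9.26, 9.14 and 9.29 with vehicle and at 8.16, 7.98 and 8.07 with TNFα (-1.16 ± 0.051). ID3 lay at 9.16, 9.03 and 9.13 and then at 7.96, 7.93 and 7.89 (-1.18 ± 0.062). INHBA, the activin A subunit, was 7.6-fold higher and went from 6.09, 5.98 and 6.03 to 8.98, 8.96 and 8.95. FST, or follistatin, which binds and blocks activin, was 4.47-fold higher, from 6.49, 6.75 and 6.53 to 8.72, 8.91 and 8.63. BAMBI, a receptor-like inhibitor of the pathway, rose by 1.22 ± 0.045 and the ligand BMP2 by 1.03 ± 0.086. Activin and its antagonist were thus both higher, and the groups overlapped in none of these 6 genes. Other members went down in smaller steps. Of 12 receptors 6 fell, from -0.60 in TGFBR2, the type II TGF-beta receptor, and BAMBI alone rose. Of 10 antagonists and binding proteins 5 fell and FST alone rose. Over the list 21 of 58 genes fell (36.2%) and 17 rose (29.3%), with a median of -0.036 that lay between -0.066 and -0.049 with each array left out in turn.

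Wnt receptors and a Wnt transcription factor fell, and a Wnt antagonist rose. FZD2, a Frizzled receptor, went from 10.21, 10.18 and 10.11 to 9.29, 9.40 and 9.38 (-0.81 ± 0.048), FZD8 fell by 0.71 ± 0.051 and the co-receptor LRP5 by 0.68 ± 0.046. TCF7L1, a repressive TCF factor, went from 8.77, 8.62 and 8.69 to 7.75, 7.88 and 7.73 (-0.91 ± 0.06). DKK1, a secreted blocker of the LRP co-receptors, rose by 1.29 ± 0.039, from 9.04, 9.13 and 9.13 to 10.40, 10.34 and 10.43, and RSPO1, an enhancer of Wnt signalling, rose by 1.04 ± 0.097 from a level below the median. Of 20 receptors 9 fell and 1 rose, and of 14 antagonists 3 fell and 2 rose. Of all 65 Wnt pathway genes 21 fell (32.3%) and 9 rose (13.8%), with a median of -0.074 that became -0.007 without vehicle replicate 1 and -0.271 with the dimmest 50% of genes left out. In the Notch pathway the receptor NOTCH3 fell by 0.85 ± 0.046 and the ligand JAG2 by 0.83 ± 0.08, while the coactivator MAML2 rose by 0.94 ± 0.035 and the protease ADAM17, which sheds TNFα and Notch, rose by 0.67 ± 0.038. Notch genes moved both ways, with 7 of 26 lower and 9 higher. In the FGF pathway the falls were smaller. The ligands FGF11 and FGF18 fell by 0.97 ± 0.10 and 0.77 ± 0.066, and the receptors FGFR2 and FGFR1 by 0.48 ± 0.077 and 0.34 ± 0.039. All 6 FGF receptors and partners at or above the median level fell, 7 of 10 in all, with a median of -0.271. The adjusted p (limma) of the genes named in this paragraph ran up to 5.46e-05, in FGFR2.

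Guidance and adhesion genes split, with large falls and large rises in the same families. PCDH18, a protocadherin, lay at 10.42, 10.17 and 10.28 with vehicle and at 8.31, 8.35 and 8.29 with TNFα, 3.94-fold lower (-1.98 ± 0.071). FAT4, a giant cadherin of planar cell polarity, went from 8.22, 8.35 and 8.17 to 6.86, 7.06 and 7.01 (-1.27 ± 0.077), and CDH11, a mesenchymal cadherin, fell by 0.73 ± 0.031. Among 33 cadherins and protocadherins 10 fell and 2 rose, and the 7 at or above the median level all fell. SEMA3F, a repellent of growing axons and vessels, went from 8.50, 8.53 and 8.56 to 7.42, 7.25 and 7.33 (-1.19 ± 0.054). In contrast SEMA6A, a transmembrane semaphorin, was 9.23-fold higher, from 6.07, 5.99 and 6.02 to 9.33, 9.24 and 9.12, and NRP2, a co-receptor of SEMA3F, was 5.67-fold higher, from 6.01 ± 0.12 to 8.52 ± 0.10. A second NRP2 probe set rose by 3.48. SEMA3F and its co-receptor thus moved in opposite directions. The ephrin ligand EFNA3 fell by 1.02 ± 0.063 and the receptor EPHB4 by 0.97 ± 0.031, from 11.20, 11.24 and 11.23 to 10.30, 10.20 and 10.24, while its ligand EFNB2 rose by 1.20 ± 0.085 and the receptor EPHA4 by 0.94 ± 0.05. EPHB4 and EFNB2, which bind each other, thus moved in opposite directions. BRINP1, a neuronal protein, was 3.34-fold lower, from 7.33, 7.21 and 7.13 to 5.50, 5.68 and 5.28, and SLITRK2, a synaptic adhesion protein, fell by 1.24 ± 0.091. Among 49 synaptic and neuronal surface genes 10 fell (20.4%), near the 21.9% of all genes. At tight junctions CXADR, the coxsackie and adenovirus receptor, went from 10.28, 10.13 and 10.18 to 8.90, 8.99 and 8.83 (-1.29 ± 0.049), while CLDN1, a claudin of the barrier, was 5.17-fold higher, from 10.57, 10.62 and 10.58 to 12.97, 12.92 and 12.99, and JAM2 rose by 2.47 ± 0.073. The adjusted p-values (limma) of all these genes were at most 2.71e-09.

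Hypoxia-inducible genes had the highest share of falls among the lists outside the leaders. Hypoxia-inducible factor (HIF) binds a core of ACGTG letters in the promoters and enhancers of its targets, which switch a cell from respiration to glycolysis. Of 31 measured targets 26 fell (83.9%) and 1, the collagen crosslinking enzyme LOX (0.74), rose, with a median of -0.470. Among the 26 targets at or above the median level 22 fell, beside 34.2% of all such genes. The genes of oxygen sensing did not share this: of 8 genes 2 fell and 2 rose, HIF1A itself did not pass (-0.03), and VHL, which marks HIF for destruction, rose by 0.47 ± 0.043. The promoters of 4 lowered genes are shown here because each holds the core within 150 bases of the start. Each line gives the 150 bases before the start in RefSeq (GRCh38.p14), 5′ to 3′ on the strand of the gene, with ACGTG, or CACGT where it lies on the other strand, in capitals (CACGTG holds both).

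PDK1: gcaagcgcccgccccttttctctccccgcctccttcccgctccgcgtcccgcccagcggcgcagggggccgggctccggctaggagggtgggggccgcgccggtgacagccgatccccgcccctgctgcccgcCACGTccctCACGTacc
BNIP3: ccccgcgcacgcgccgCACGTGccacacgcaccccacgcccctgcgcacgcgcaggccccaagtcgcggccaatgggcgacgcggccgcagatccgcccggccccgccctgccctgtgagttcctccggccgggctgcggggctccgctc
AK4: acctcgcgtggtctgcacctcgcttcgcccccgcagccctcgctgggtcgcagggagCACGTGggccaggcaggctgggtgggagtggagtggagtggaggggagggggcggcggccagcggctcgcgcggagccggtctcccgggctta
ENO2: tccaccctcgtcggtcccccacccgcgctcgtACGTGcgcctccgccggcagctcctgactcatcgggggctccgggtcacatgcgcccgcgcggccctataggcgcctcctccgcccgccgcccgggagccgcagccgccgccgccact

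These windows lie at chr2:172555940-172556089 (plus strand), chr10:131981924-131982073 (minus strand), chr1:65147402-65147551 (plus strand) and chr12:6914430-6914579 (plus strand). ACGTG stood on either strand in 17 of 33 windows of 300 bases around the starts of the lowered hypoxia genes (51.5%), in 41.9% of those of the lowered glycolysis genes, in 26.4% of the windows of genes at or above the median level and in 23.0% of all 19629 windows. It stood in 19.5% of the windows of all genes lowered at least 2-fold. The hypoxia list was written from known hypoxia-inducible genes, so a high share of the core can come from the list itself. Its genes that did not fall were not counted apart, so the share cannot be tied to the effect of TNFα. Letters in a window are a description, and binding was not measured here.

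PFKFB4, whose product sets the level of the activator of phosphofructokinase, lay at 8.10, 8.19 and 8.20 with vehicle and at 6.49, 6.41 and 6.67 with TNFα, 3.12-fold lower (-1.64 ± 0.082). PDK1, which closes pyruvate dehydrogenase, lay at 10.24, 10.35 and 10.37 and then at 9.33, 9.26 and 9.29 (-1.03 ± 0.038). Its relative PDK2 went from 8.99, 8.88 and 8.93 to 8.15, 8.12 and 8.08 (-0.82 ± 0.065). These 3 regulators were lower without overlap of the groups. ENO2, an enolase, was the most lowered enzyme of glycolysis, from 10.46, 10.52 and 10.52 to 9.33, 9.28 and 9.20 (-1.23 ± 0.044). Falls in the rest of the enzymes were small, with ALDOC at -0.60, PFKM at -0.42, LDHA at -0.32 and PGK1 at -0.18, and GAPDH did not pass (0.01). Of 16 enzymes, all at or above the median level, 13 fell and none rose. The list of 33 glycolysis genes held 19 lower genes, or 15 with each array centred on its median. It shares 6 genes with the hypoxia list, 18.2% of the one and 15.4% of the other, of which 4 fell. The hexose transporter SLC2A6 rose by 1.22 ± 0.057 and TIGAR, which lowers glycolysis, by 0.52 ± 0.082.

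STC2, a secreted glycoprotein, went from 9.70, 9.70 and 9.71 to 8.49, 8.45 and 8.50 (-1.22 ± 0.053), and AK4, a mitochondrial adenylate kinase, from 10.36, 10.45 and 10.41 to 9.42, 9.29 and 9.44 (-1.02 ± 0.043). A second AK4 probe set fell by less, -0.67. DDIT4, an inhibitor of mTOR signalling, went from 11.84 ± 0.015 to 10.92 ± 0.077 (-0.92 ± 0.035). BNIP3, a mitophagy receptor, fell by 0.90 ± 0.038, the histone demethylase KDM3A by 0.73 ± 0.041 and the angiogenic factor VEGFA by 0.70 ± 0.04. ANGPTL4, an inhibitor of lipoprotein lipase, was 3.04-fold lower, from 8.62, 8.46 and 8.58 to 6.90, 7.03 and 6.91. All 7 genes were lower on every TNFα array. The adjusted p (limma) was at most 8.64e-09 for these genes and those of the previous paragraph down to ENO2.

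**Figure D3:**
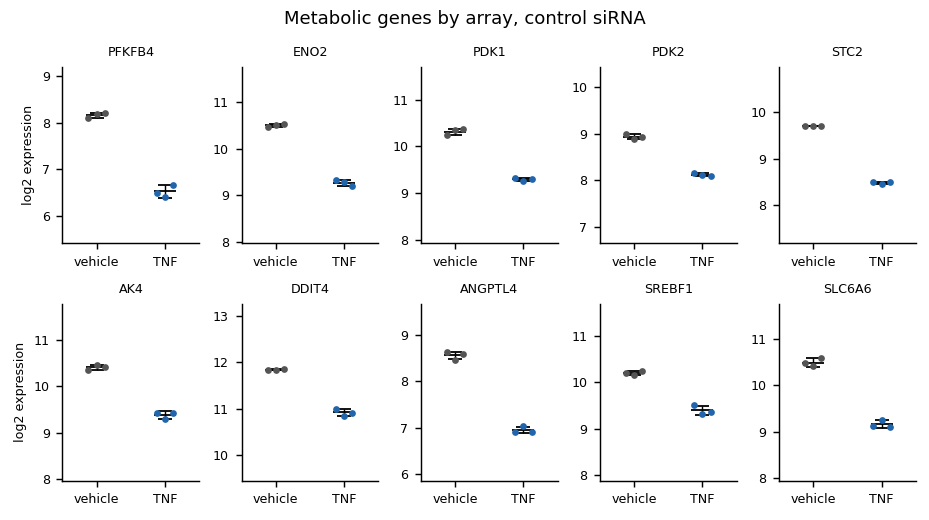
Log2 expression (vertical axis) of 10 metabolic genes on the 3 vehicle and 3 TNFα arrays with control siRNA. Points are arrays, bars show the mean and SD, every panel spans the same range, and the falls run from 1.64 in PFKFB4 to 0.80 in SREBF1 with no overlap of the groups.

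Genes of fat metabolism were lower in smaller steps. Of 21 mitochondrial genes of fatty acid oxidation 10 fell and none rose, among them CPT1A and CPT1C, which bring fatty acids into mitochondria, at -0.51 ± 0.043 and -0.54 ± 0.033. PPARGC1A, a coactivator of mitochondrial genes, went from 5.81, 6.07 and 6.16 to 5.43, 5.06 and 5.41, below the median level throughout (-0.71 ± 0.11). In fatty acid and glycerolipid synthesis 17 of 28 genes fell and 6 rose. SREBF1, the transcription factor of fatty acid synthesis, went from 10.21, 10.16 and 10.24 to 9.51, 9.33 and 9.36 (-0.80 ± 0.048), and the elongase ELOVL6 fell by 0.67 ± 0.051. Another elongase, ELOVL7, was 6.23-fold higher, from 8.09, 8.13 and 8.22 to 10.84, 10.75 and 10.77, and the acyl-CoA synthetase ACSL5 rose by 1.98 ± 0.095, from 4.88, 4.78 and 5.13 to 7.01, 6.77 and 6.97. Of 21 sterol genes and regulators 4 fell (19.0%) and 2 rose. Of 22 citrate cycle genes, all at or above the median level, 6 fell (27.3%), a share below the 34.2% of all such genes. In the synthesis of serine, one-carbon units and nucleotides 12 of 34 genes fell (35.3%) and 7 rose (20.6%). Of these genes 32 lay at or above the median level, where 34.2% of all genes fell and 21.8% rose, so the shares were near the background. CTPS2, which makes CTP, fell by 0.76 ± 0.058.

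Metallothioneins were higher, while amino acid transporters (7 of 25 lower and 7 higher), zinc transporters (3 of 18 lower and 5 higher) and the enzymes of tryptophan, NAD and polyamine metabolism (8 of 23 lower and 8 higher) moved both ways. Without vehicle replicate 3 the lower genes among these enzymes were 5. SLC6A6, the taurine transporter, went from 10.47, 10.41 and 10.60 to 9.14, 9.26 and 9.11 (-1.32 ± 0.049), while SLC7A2, a carrier of arginine, was 4.71-fold higher, from 8.09 ± 0.11 to 10.33 ± 0.033. Metallothioneins, small proteins that bind zinc and copper, were higher in 9 of 10 entries of that group, which counts their activator MTF1. MT1E went from 8.01, 8.15 and 8.22 to 9.09, 9.19 and 9.39 (1.10 ± 0.09) and MT1X from 10.26, 10.56 and 10.36 to 11.30, 11.20 and 11.48 (0.94 ± 0.067). Their sequences are nearly identical, so the share of each gene in these signals is uncertain. The zinc importers SLC39A14 and SLC39A8 rose by 1.52 ± 0.033 and 1.29 ± 0.03, and on the TNFα arrays SLC39A14 stood at 12.59, 12.50 and 12.59. IDO1, which opens the breakdown of tryptophan, went from 4.59, 4.41 and 4.79 to 8.41, 8.40 and 8.34 (3.79 ± 0.082, or 3.38 with the floor), and later steps of that route differed. KYNU rose by 1.34 ± 0.041, while QPRT, near its end, fell by 0.54 ± 0.057. NAMPT, which recycles NAD, rose by 0.92 ± 0.03. Of 19 clock genes 9 rose and 6 fell. The clock output factors DBP and HLF fell by 1.06 ± 0.083 and 0.93 ± 0.077, and BMAL1 and BMAL2 of the activating arm rose by 0.59 ± 0.063 and 0.99 ± 0.061. The limma adjusted p of the genes in this and the preceding paragraph was at most 5.69e-05, in PPARGC1A.

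**Figure D4:**
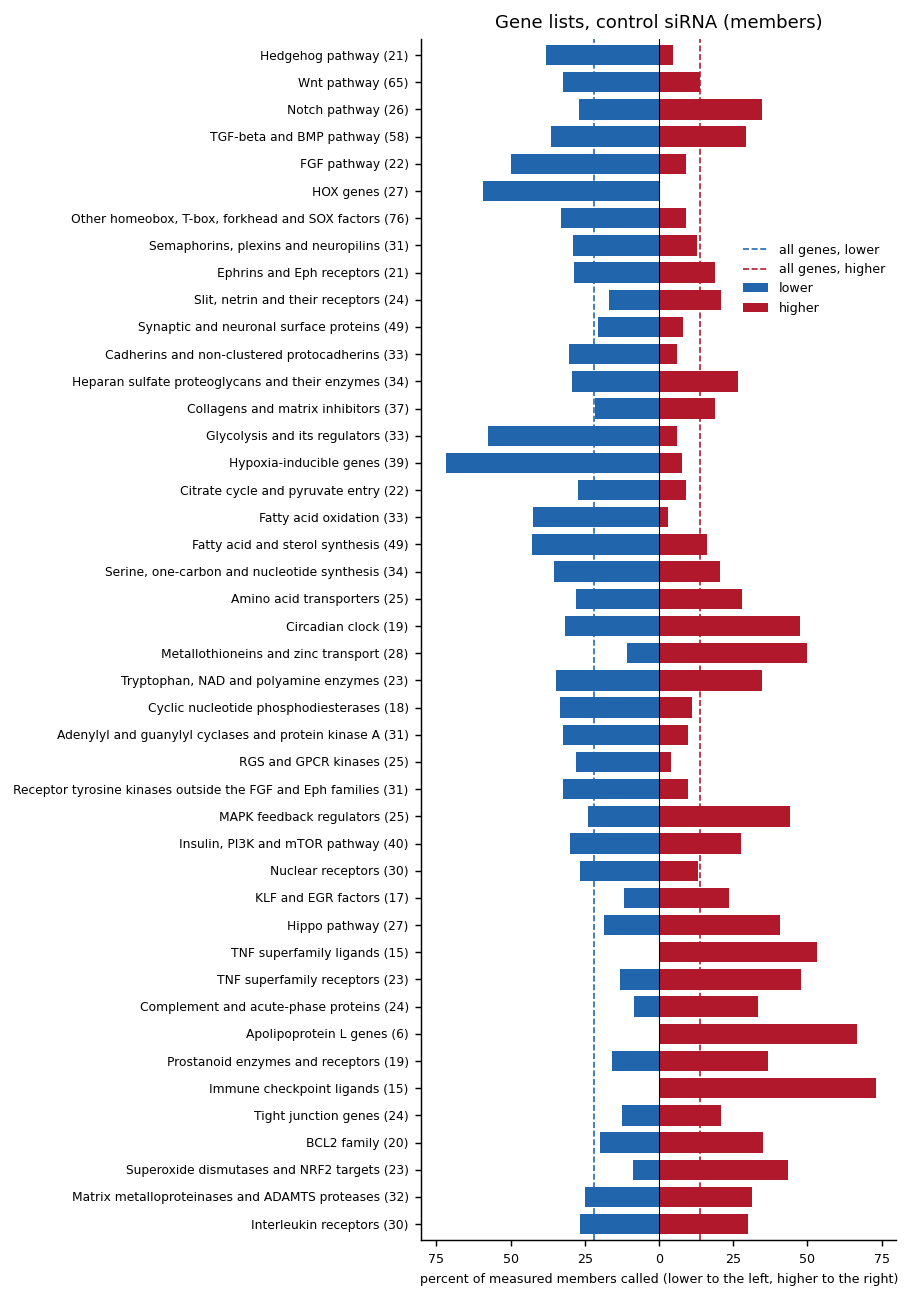
Share of the measured members of 44 gene lists that were lower (blue, to the left) or higher (red, to the right) with TNFα under control siRNA, in percent of members; the number measured is in brackets. Dashed lines mark the shares of all genes, 21.9% lower and 13.8% higher; hypoxia-inducible genes (71.8%), HOX genes (59.3%) and glycolysis genes (57.6%) have the longest blue bars, and immune checkpoint ligands (73.3%) the longest red bar.

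Among signalling genes, a cyclic AMP phosphodiesterase and several nuclear hormone receptors fell. PDE8B, a phosphodiesterase that breaks down cyclic AMP, lay at 7.84, 7.92 and 8.06 with vehicle and at 6.30, 5.82 and 6.02 with TNFα, 3.72-fold lower (-1.90 ± 0.11). Of 18 phosphodiesterase genes 6 fell and 2 rose. GUCY1A2, a subunit of the nitric oxide receptor guanylyl cyclase, was 3.22-fold higher, from 7.69, 7.37 and 7.40 to 9.09, 9.26 and 9.17. THRA, a thyroid hormone receptor, went from 8.69, 8.51 and 8.68 to 7.53, 7.55 and 7.52 (-1.10 ± 0.054), and RXRA, the partner of many nuclear receptors, from 10.11 ± 0.067 to 9.13 ± 0.12 (mean ± SD, n = 3 in each group). The orphan receptor NR2F1 fell by 0.84 ± 0.052, while another orphan receptor, NR4A3, rose by 1.60 ± 0.047, from 7.90, 7.86 and 7.92 to 9.51, 9.48 and 9.50. In all 8 of 30 nuclear receptor genes fell (26.7%) and 4 rose (13.3%), near the 21.9% and 13.8% of all genes. The retinoic acid receptors RARA (-0.61) and RARG (-0.47) were among those that fell.

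Receptor kinases and their adaptors moved both ways. NTRK2, the receptor of brain-derived neurotrophic factor, went from 8.82, 8.97 and 8.94 to 8.01, 8.12 and 8.11 (-0.83 ± 0.054), and EGFR, the epidermal growth factor receptor, from 9.81, 9.93 and 9.84 to 10.54, 10.61 and 10.57 (0.71 ± 0.039). The adaptors of receptor kinases GAB1, GRB10 and IRS1 fell by 0.83 ± 0.04, 0.80 ± 0.049 and 0.66 ± 0.064. A second GAB1 probe set, itself under the median level, fell by less, -0.40 (limma adjusted p = 0.00356). In contrast PIK3CD, a catalytic phosphoinositide kinase subunit, was 3.76-fold higher, from 8.28, 8.32 and 8.26 to 10.31, 10.11 and 10.17. CASTOR1, an arginine sensor upstream of mTOR, was 3.02-fold higher, from 6.82, 6.88 and 6.95 to 8.50, 8.55 and 8.39. Of 40 insulin, PI3K and mTOR genes 12 fell and 11 rose, so the list had no common direction (median -0.031, and -0.009 without vehicle replicate 1). Among MAPK phosphatases, which switch off ERK, JNK and p38, 8 of 12 rose and DUSP4 fell most, by 0.88 ± 0.038. ARHGEF3 lay at 8.84, 8.90 and 8.99 with vehicle and at 7.63, 7.53 and 7.42 with TNFα (-1.39 ± 0.076). KLF5, a factor of epithelial growth, rose by 1.56 ± 0.055, from 7.65, 7.46 and 7.52 to 9.15, 9.06 and 9.10, while the immediate early gene EGR1 was lower by a small step, -0.31 ± 0.046. The adjusted p (limma) of the genes in this and the preceding paragraph was at most 2.7e-05.

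Outside the NF-kB and interferon leaders, the rises included secreted proteins, enzymes, a transcription factor and receptors. TNFAIP6, which binds hyaluronan, went from 4.37, 4.56 and 4.47 to 10.79, 10.88 and 10.85 (6.38 ± 0.078). Complement C3 rose by 4.73 ± 0.083, from 4.81, 4.54 and 4.41 to 9.30, 9.39 and 9.25, and complement factor B, CFB, was 15.7-fold higher, from 5.40, 5.64 and 5.84 to 9.58, 9.64 and 9.59. CFB had 3 probe sets, and the other two rose by 4.40 and 4.34. The protease inhibitor SERPINA3 rose by 3.87 ± 0.092, from 4.84, 4.68 and 4.70 to 8.67, 8.46 and 8.70. With the floor the changes were 5.84 in TNFAIP6, 4.32 in C3 and 3.61 in SERPINA3. These 4 genes, CFB included, lay below the median level with vehicle and above it with TNFα. Of 24 complement and acute-phase genes 8 rose and 2 fell, and the acute-phase genes SAA1 and SAA2 did not pass. CYP7B1, an oxysterol hydroxylase, was 20.2-fold higher, from 6.29, 6.02 and 5.88 to 10.29, 10.46 and 10.45. GCH1, which makes the cofactor tetrahydrobiopterin, was 9.56-fold higher, from 6.05, 6.14 and 5.76 to 9.28, 9.28 and 9.16. STAT5A, a transcription factor of cytokine receptors, rose by 3.60 ± 0.086, from 5.41, 5.18 and 5.47 to 9.02, 8.86 and 8.98, and IL7R, the interleukin-7 receptor, by 3.57 ± 0.08. TFPI2, a protease inhibitor of the matrix, went from 7.88, 8.15 and 7.91 to 11.08, 10.99 and 11.04 (3.05 ± 0.057). DRAM1, a lysosomal protein of autophagy, rose by 3.10 ± 0.059 and EDNRB, an endothelin receptor, by 2.87 ± 0.066. The groups did not overlap in any of these genes, and the adjusted p (limma) was at most 2.13e-15.

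Immune checkpoint ligands, which restrain or drive T cells, rose in 11 of 15 entries and fell in none (median 0.502). The list counts the enzyme IDO1 among those that rose, and 8 of the 15 lay below the median level. With the dimmest 50% of genes left out 6 rose. CD274, or PD-L1, went from 4.83, 4.92 and 5.38 to 8.17, 8.36 and 8.14, 9.06-fold higher (3.18 ± 0.11), and PDCD1LG2 or PD-L2, the next measured gene on chromosome 9, was 6.15-fold higher (2.62 ± 0.035), at 10.61, 10.60 and 10.65 with TNFα. In neither gene did the groups overlap. TNF itself rose by 2.78 ± 0.097, from 4.70, 4.50 and 4.68 to 7.44, 7.20 and 7.57, CD70 rose by 1.64 ± 0.04 and TNFSF18 by 1.76 ± 0.059. Of 15 TNF superfamily ligands 8 rose and none fell, but 12 of the 15 lay below the median level and 3 rose with the dimmest 50% of genes left out. TNFRSF9, or 4-1BB, rose by 3.12 ± 0.083, from 4.56, 4.58 and 4.54 to 7.61, 7.73 and 7.69, and CD40 rose by 1.40 ± 0.058. With the floor the change was 2.68 in TNFRSF9 and 2.40 in TNF. Of 23 receptors of the family 11 rose and 3 fell. Stretches of 150 bases from the promoters of 2 of these genes are shown because they hold the letters of known response elements: in CD274 a pair of overlapping matches to an interferon-stimulated response element (TTTC, 2 bases of any kind, TTTC), and in TNFRSF9 an NF-kB motif (GGGA, 2 bases of any kind, TTCC, matched on both strands in overlap) and an AP-1 motif (TGANTCA), all in capitals.

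CD274: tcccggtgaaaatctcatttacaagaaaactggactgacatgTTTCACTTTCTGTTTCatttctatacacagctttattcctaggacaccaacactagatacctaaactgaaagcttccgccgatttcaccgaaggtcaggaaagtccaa
TNFRSF9: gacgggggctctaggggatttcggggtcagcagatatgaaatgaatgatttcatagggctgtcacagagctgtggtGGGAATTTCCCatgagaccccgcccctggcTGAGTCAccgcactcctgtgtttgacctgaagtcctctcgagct

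The CD274 stretch is chr9:5450292-5450441 (plus strand) and the TNFRSF9 stretch chr1:7940840-7940989 (minus strand) (GRCh38.p14, RefSeq, 5′ to 3′ on the strand of the gene). Over all 19629 windows of 300 bases, searched on both strands, 1.57% held the NF-kB motif, 3.10% the interferon motif and 6.09% the AP-1 motif. In the windows of genes raised at least 2-fold, leaders included, the shares were 8.71%, 12.9% and 8.43%, and in those of genes lowered at least 2-fold 1.69%, 2.54% and 5.93%. A match says nothing of binding.

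Smaller families rose as well. Among the apolipoprotein L genes, lipid-binding proteins of innate immunity, 4 of 6 rose, and APOL6 was 7.47-fold higher, from 6.82, 6.96 and 7.15 to 9.86, 9.86 and 9.92. In prostanoid signalling PTGS2, the inducible cyclooxygenase, rose by 1.63 ± 0.11 and the prostaglandin E2 receptor gene PTGER2 by 1.67 ± 0.11, from 4.55, 4.56 and 4.74 to 6.59, 6.06 and 6.21 (1.29 with the floor), with 7 of 19 genes higher and 3 lower. SOD2, the mitochondrial superoxide dismutase, was 4.63-fold higher, from 9.98, 10.00 and 9.97 to 12.21, 12.17 and 12.20. The NRF2 gene NFE2L2 rose by 0.76 ± 0.034 and its target GCLM, of glutathione synthesis, by 0.69 ± 0.052, and 10 of 23 genes of that list rose against 2 that fell. Interleukin receptors split into 9 higher and 8 lower of 30, with IL1RAP, a shared chain of the interleukin-1 family receptors, at 1.72 ± 0.053 and CNTFR, the ciliary neurotrophic factor receptor, at -0.70 ± 0.068. In the Hippo pathway, which restrains growth through YAP1, 11 of 27 genes rose and 5 fell (3 without vehicle replicate 1 or without TNFα replicate 3), with YAP1 at 0.37 ± 0.043 and LATS2 at 0.47 ± 0.045. SDC4, a cell surface heparan sulfate proteoglycan, rose by 1.56 ± 0.039, while the xylosyltransferase XYLT2, which starts the sugar chains, fell by 0.69 ± 0.052. The limma adjusted p of the genes in this paragraph was at most 1.58e-06.

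The same genes were measured with c-Jun siRNA on 6 other arrays, which share none with the comparison above. Of the 101 genes lowered at least 2-fold 100 were also called lower there, and of the 322 raised at least 2-fold 319 were called higher. The difference of both TNFα effects passed for 983 of all 17958 genes (5.47%). It passed in the direction of a smaller effect for 27 of the 101 lowered genes (26.7%) and 200 of the 322 raised genes (62.1%), and in that of a larger effect for 8 and 16. These genes were chosen by one of the effects compared, so the shares are a description. Among developmental genes, BOC (-2.20 and -2.04), PTCH1 (-1.51 and -1.29), GATA3 (-1.33 and -1.24) and SEMA3F (-1.19 and -1.22) did not pass the test of the difference. Nor did the metabolic genes PFKFB4 (-1.64 and -1.84), ENO2 (-1.23 and -1.22) and SLC6A6 (-1.32 and -1.24). JUN RNA was lowered only in part by its siRNA, as its values above show, and the arrays do not measure the protein. A difference that did not pass therefore does not show that a gene is independent of c-Jun. The widest difference among lowered genes named here was in ARHGEF3, whose change was -1.39 with control siRNA but 0.01 with c-Jun siRNA. In that gene the difference was 1.40 ± 0.11 (SE, limma adjusted p = 1.29e-07). Its vehicle level was also lower with c-Jun siRNA, 6.82 ± 0.14 against 8.91 ± 0.075 (mean ± SD, n = 3 in each group). The reverse was seen in the acute-phase gene SAA2, which did not pass with control siRNA (0.19) and changed by 2.69 with c-Jun siRNA, from 5.11, 4.95 and 5.25 to 7.85, 7.48 and 8.05, a difference of 2.50 ± 0.18 (limma adjusted p = 5.06e-08).

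**Figure D5:**
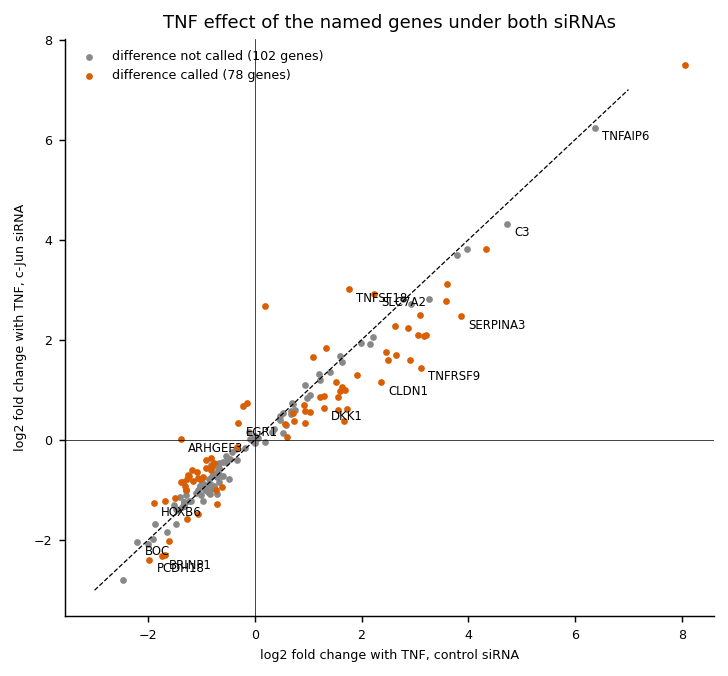
Log2 fold change with TNFα under control siRNA (horizontal axis) and under c-Jun siRNA (vertical axis) for the genes named in the text. Orange genes had a called difference between the siRNAs, the dashed line marks equal effects, and ARHGEF3, at -1.39 and 0.01, lies farthest above the line among the lowered genes.

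A position code in the array names moved in part with the groups. With control siRNA it was read as columns 7, 7 and 5 for vehicle and 9, 7 and 7 for TNFα. With c-Jun siRNA it was read as columns 5, 5 and 5 for vehicle and 9, 7 and 9 for TNFα. No column of the c-Jun siRNA arrays held both treatments, so within them position and TNFα cannot be told apart. With only the control siRNA arrays of column 7 (2 in each group) 5169 genes changed, 3099 lower and 2070 higher. The hypoxia list again held 28 lower genes, the HOX list 15 and the Hedgehog list 8.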

How the data were processed

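Total RNA of BT549 cells was labelled for whole-transcript Affymetrix gene arrays, per the labels' protocols, and 12 arrays were deposited, 3 in each of 4 groups. The authors deposited log2 values that, per the submitters' processing notes, came from Affymetrix Expression Console 1.1 with PLIER; the log base is inferred from their range, 2.266 to 13.966. The values were used as deposited. Of 33297 probe sets 19181 named 1 gene, and each of the 17958 genes kept its probe set with the highest mean. limma 3.58.1 in R 4.3.3 fitted 1 mean per group over all 12 arrays with a mean-variance trend, two-sided, with Benjamini-Hochberg adjustment over all genes, and genes were called at an adjusted p under 0.05. The fit had 8 residual degrees of freedom and was tested on simulated data. The name of the array of c-Jun siRNA TNFα replicate 3 looks like that of a second run, which the labels do not explain. It may therefore not be an independent sample. With that array averaged with replicate 1 of its group, the TNFα effect differed between the siRNAs in 867 genes. Groups came from the sample titles. The median SE of a change was 0.0649. Tables and plots were made with Python 3.11.15, pandas 2.3.3 and matplotlib 3.10.9.

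The members and gene lists were chosen with earlier results of these data known. Genes were named by a rule: the 40 deepest falls at or above the median level in either group, the 25 largest rises outside the NF-kB and interferon leaders, and up to 6 called genes with the largest changes in each list. The rule also covered JUN and the members of the marker lists, called or not. Some further members of the pathways (such as SUFU, GLI3, HHIP, LRP5, BNIP3, KDM3A, VEGFA, LDHA, IRS1, TGFBR2, RARA, SAA2 and YAP1) and all uncalled genes outside the marker lists were named after their values were seen. RefSeq promoter windows (GRCh38.p14) of 300 bases were matched by symbol for 13864 genes. The alternatives tried were other filters, scalings, variance models and thresholds, blocks for the replicate number and for the position column, and each array left out in turn. A further gene list is not reported here.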

Additional observations from a re-analysis of the deposited data

Results flagged for a closer look

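The effect of TNFα differed between the c-Jun siRNA and the control siRNA (interaction term, limma, adjusted p under 0.05) in 78 of the named genes, and the values here are the log2 effect with c-Jun siRNA minus that with control siRNA. A positive value in a lowered gene means a smaller fall, or a rise, with c-Jun siRNA. Among developmental genes lowered with control siRNA it was 0.90 in HHIP, 0.63 in HOXB6, 0.59 in ID3, 0.55 in HOXB5, 0.52 in HOXC11, 0.45 in FZD2, 0.45 in HOXC9, 0.37 in CDON, 0.35 in ID1 and 0.29 in SOX13. HHIP, the Hedgehog decoy receptor, was called lower with control siRNA and higher with c-Jun siRNA (0.68). Among lowered metabolic genes the difference was 0.52 in DDIT4, 0.51 in STC2, 0.34 in BNIP3, 0.30 in CTPS2, 0.29 in SREBF1, 0.24 in PDK1 and 0.18 in LDHA. Among other lowered genes it was 1.40 in ARHGEF3, 0.65 in EGR1, 0.54 in SLITRK2, 0.50 in FAT4, 0.46 in EEPD1, 0.34 in PTPN13, 0.30 in CXADR, 0.24 in EPHB4 and 0.22 in GAB1. EGR1 changed by 0.34 with c-Jun siRNA, against its fall with control siRNA. Larger falls with c-Jun siRNA gave differences of -0.61 in SLITRK6, -0.58 in BRINP1, -0.57 in FZD8, -0.41 in GAS1, -0.41 in PCDH18, -0.40 in ANGPTL4, -0.32 in RARA, -0.31 in TIMP3 and -0.27 in CDH11.

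A negative value in a raised gene means a smaller rise with c-Jun siRNA. The widest such differences were -1.67 in TNFRSF9, -1.40 in SERPINA3, -1.30 in APOL6, -1.29 in PTGER2, -1.22 in CLDN1, -1.11 in IL1RAP, -1.11 in SEMA6A, -1.09 in CD274, -0.96 in KLF5, -0.96 in TFPI2, -0.93 in ELOVL7 and -0.90 in NRP2. TNFRSF9, 4-1BB, and SERPINA3 lead this group, and the checkpoint ligand CD274 and the claudin CLDN1 also belong to it. A smaller rise need not mean a lower level with TNFα. With c-Jun siRNA the vehicle means of CLDN1, CD274 and APOL6 were 11.83, 6.06 and 8.13, against 10.59, 5.04 and 6.98 with control siRNA. Their TNFα means were 12.98, 8.14 and 9.72, against 12.96, 8.22 and 9.88. In DKK1 the vehicle means were close (9.12 and 9.10), and the TNFα mean was lower, 9.77 against 10.39. Such levels were not compared for every gene here. Middle values were -0.80 in IL7R, -0.71 in JAM2, -0.69 in GUCY1A2, -0.69 in SDC4, -0.64 in DKK1, -0.63 in EDNRB, -0.63 in NR4A3, -0.62 in PIK3CD, -0.60 in DRAM1, -0.60 in EPHA4 and -0.58 in CD70. Smaller ones were -0.57 in CXCL10, -0.54 in TBX3, -0.51 in CYP7B1, -0.47 in STAT5A, -0.46 in BMP2, -0.42 in SLC39A8, -0.37 in BAMBI, -0.36 in LOX, -0.36 in MAML2, -0.36 in SLC39A14, -0.34 in PDCD1LG2, -0.24 in GLI3, -0.22 in NAMPT and -0.19 in JUN. Rises were larger with c-Jun siRNA for the ligand TNFSF18, the arginine carrier SLC7A2, the metallothionein MT1E and KYNU of tryptophan breakdown, by 1.25, 0.69, 0.56 and 0.49 in that order. The acute-phase genes SAA2 and SAA1, not called with control siRNA, differed by 2.50 and 0.89.

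Probe sets outside the gene comparison also changed with TNFα under control siRNA (limma, adjusted p under 0.05 in their own fit). Of 12061 probe sets with no gene symbol 370 changed (3.07%), 197 higher and 173 lower. Of 2055 probe sets shared by several genes 252 changed (12.3%), 87 higher and 165 lower.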

How the results depend on the processing

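Each result was computed again under 21 alternatives, 6 of which left out 1 array each. Genes removed by the filters on dim genes were not tested under those filters. Of the 180 named genes followed, none that was called changed direction under an alternative that kept it. All calls of the TNFα effect with control siRNA stayed on their side of the threshold there except that of HHIP. The differences between the siRNAs were not followed gene by gene under the alternatives. The HHIP call was lost without TNFα replicate 2 and at an adjusted p under 0.01. The 101 genes lower at least 2-fold became 62 with the dimmest 50% of genes left out, which leaves fewer genes to test. The 983 genes whose effect differed between the siRNAs became 531 with the position column as a block and 553 at an adjusted p under 0.01. Leaving out 1 array gave 5759 to 5889 changed genes, 3480 to 3596 lower, 2249 to 2305 higher, 99 to 105 lower and 322 to 328 higher at least 2-fold, and 774 to 861 with a difference between the siRNAs. Centring each array on its median gave 3324 lower and 2885 higher genes. The replicate numbers did not pair the arrays, since the deviations of same-numbered arrays correlated at 0.004, -0.036 and 0.004, and a replicate block left 6333 genes called. The HOX list held 7 lower genes with the dimmest 50% left out. Of 52 list medians 51 moved by more than the spread between replicates under at least 1 alternative, so medians near 0 carry no direction; that of the TNF superfamily ligands, 0.309, became 0.017 with the floor and 1.64 with the dimmest 50% left out. With 3 arrays in a group the precision is limited by their number.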

Other observations

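Some members of the large gene families counted here are also named above. Of 476 ZNF zinc finger genes 131 fell (27.5%) and 38 rose (7.98%), beside 21.9% and 13.8% of all genes, with a median of -0.07. Among the 266 of them at or above the median level 83 fell and 35 rose. These shares were smaller than the 34.2% and 21.8% of all such genes. Of 84 potassium channel genes 16 fell, 2 of them at least 2-fold, and 2 rose, and 75 lay below the median level. Solute carriers were close to the background, with 68 of 321 lower (21.2%) and 43 higher (13.4%). Of 62 ribosomal protein genes 3 fell (4.84%) and none rose, and none fell without TNFα replicate 2. Of 33 genes of NADH dehydrogenase subunits 9 fell (27.3%) and 1 rose. Of these genes 32 lay at or above the median level, where 34.2% of all genes fell and 21.8% rose, so falls were not more frequent than in the background.

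Genes lowered at least 2-fold spanned a median of 40699 bases in RefSeq (GRCh38.p14), those raised at least 2-fold 25896 bases and those at or above the median level 31165 bases. Among genes lowered at least 2-fold, ZNF395 and FBXO16 lay next to each other among the measured genes, with changes of -1.52 and -1.25.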
